A study of Mus musculus with 18 samples.

Results

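Imprinted genes are expressed from the maternal or the paternal copy only, according to marks laid down in the egg or the sperm. Here 40 mouse imprinted genes were listed by name and followed through gene tables of 46078 Ensembl identifiers. Of the 40 genes, 22 are expressed from the paternal copy and 16 from the maternal copy, and 2 (Grb10 and Gnas) have transcripts of either origin, by tissue or promoter. Some of the 16, such as Ascl2 and Ube3a, are known to be imprinted mainly in placenta or in neurons. The study measured RNA from female mice with deletions of Xist, the noncoding RNA that silences an X chromosome in female cells. Mutant mice carried a homozygous Xist deletion, and control mice carried it in the heterozygous state, so every library came from an animal with at least 1 deleted copy. Primary tail-tip fibroblasts gave 3 mutant and 3 control libraries. Spleen, liver and brain, collected on postnatal day 1, gave 2 mutant and 2 control libraries each, or 18 libraries in all. The labels name neither the line or agent that made the deletion nor the part of Xist removed, and they do not say whether organs came from the same animals.

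Imprinted genes lie in clusters. Each cluster is governed by a control region that is methylated on a single parental copy, often with a long noncoding RNA expressed from the opposite copy to the protein-coding genes. Many of them set fetal and early postnatal growth. Paternally expressed genes such as Igf2, Dlk1 and Peg3 mostly promote growth or nurture, and maternally expressed genes such as Cdkn1c, H19, Igf2r and Grb10 mostly restrain it. In mouse, a group of these genes is high in fetal organs and declines together after birth, and another group stays active in brain.

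Values are given as signal, the authors' scaled read count per gene, normalized within each tissue. Reads of the parental copies were not told apart, so paternal and maternal name the known class of a gene and not a measured copy. Libraries held 12.4 M to 29.2 M reads in genes, and 1 read equalled a signal of 0.0343 to 0.0751. Where a gene had no read, up to 3 reads were still possible (95% confidence), a signal of 0.103 to 0.225, counting error alone considered. Xist signal was 11.04, 13.5 and 2.33 in mutant fibroblasts, against 141, 98.2 and 70.5 in control fibroblasts. Mutant spleens had 117 and 51.2 against 1205 and 1121 in control spleens. Mutant livers had 178 and 257 against 594 and 730.4 in control livers, and mutant brains had 3.62 and 4.15 against 666 and 683 in control brains. Mutants were thus lower in every tissue, 3.05-fold in liver and 174-fold in brain. DESeq2 passed Xist in all 4 tissues (adjusted p at most 8.90e-05), and limma passed it in brain only (adjusted p = 1.50e-08). Spleen mutant 1 stood apart, with reads in 32381 genes against 25166 to 26940 in the other 3 spleen libraries and the lowest depth. Acinar pancreas markers (9 genes) summed to 15.6 and 7758 in the mutant spleens and to 1020 and 9.36 in the control spleens. Markers of the labelled tissue were present in each. Hepatocyte markers summed to at least 74607 in liver and neuron markers to at least 5975 in brain. Erythroid markers summed to at least 5863 in spleen, and mesenchyme markers to at least 20434 in fibroblasts. Erythroid sums of 2941 to 10397 in liver overlapped those of spleen, so that list does not tell the 2 organs apart. Lymphocyte markers summed to 77.6 to 305 in spleen and to 26.9 to 32.9 in liver.

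The 40 genes map to 11 chromosomes, with 17 on chromosome 7 and 5 in the Dlk1–Dio3 cluster on chromosome 12. The start regions of the Peg3 cluster on chromosome 7 are shown because 3 of its genes were higher in both mutant livers and 2 of them share a start region. Peg3, a paternally expressed zinc-finger gene (chr7:6703892-6730431, minus strand, GRCm38), and Usp29, a paternally expressed ubiquitin-protease relative (chr7:6730578-6967219, plus strand), are transcribed away from each other. Zim1, a maternally expressed zinc-finger gene (chr7:6671269-6696450, minus strand), starts 33.99 kb from the Peg3 start by the RefSeq start positions. Sequences were taken from RefSeq promoters on GRCm38, and capitals mark the motif CCAAT.
Between Peg3 and Usp29, chr7:6730432-6730577, plus strand: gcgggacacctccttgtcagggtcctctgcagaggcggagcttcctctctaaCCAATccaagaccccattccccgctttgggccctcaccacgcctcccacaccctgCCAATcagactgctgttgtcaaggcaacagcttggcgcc
Upstream of Zim1, chr7:6696451-6696596, minus strand: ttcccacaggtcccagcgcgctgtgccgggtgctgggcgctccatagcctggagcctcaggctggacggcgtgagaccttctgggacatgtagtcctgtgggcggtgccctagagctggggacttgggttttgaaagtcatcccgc
The 146 bases between Peg3 and Usp29 held CCAAT 2 times, 5 CpG and no TGACGTCA, searched on both strands. The 146 bases before Zim1 held neither motif and 8 CpG. Among 32851 RefSeq promoters of this length, 24.04% held CCAAT, 5.854% held it at least 2 times, 1.345% held TGACGTCA, and the median was 4 CpG. A match is a description of the letters and not a site of binding.

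In control libraries the imprinted genes were highest in brain more often than elsewhere. Levels were compared as reads per kilobase of merged exons, scaled to the library's reads in genes (RPKM), because the 4 tables were normalized separately, and these comparisons carry no test. Of the 40 genes, 22 were highest in brain (12 paternal, 9 maternal, Gnas), 9 in liver, 6 in fibroblasts and 3 in spleen. Low peaks are included, such as that of Ascl2 (mean signal 0.663 in control brains). The share of all genes that peak in each tissue was not computed, so these counts cannot be read as particular to imprinted genes. For 30 genes the control libraries of the highest tissue did not overlap those of the next one, and this too was not computed over all genes. Brain holds neurons, in which several of these genes are known to act, and the rest of the comparison orders the genes by the tissue of their peak.

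**Figure D1:**
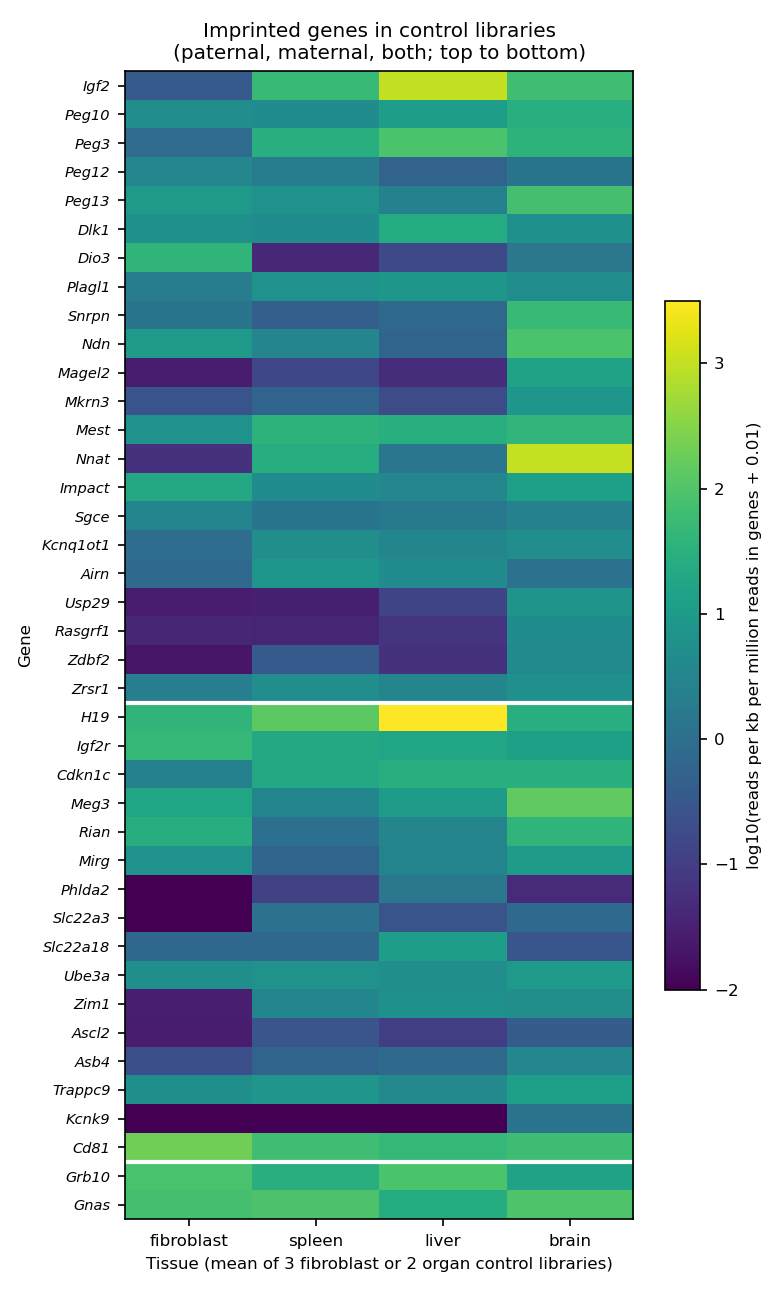
Mean level of the 40 imprinted genes in control libraries of each tissue, on a log10 scale of RPKM plus 0.01, with white lines between paternally expressed genes, maternally expressed genes and genes of both origins. Nnat stands out in brain (1017 RPKM), and H19 (3457) and Igf2 (1009) in liver.

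Nnat, a small membrane protein of developing neurons, reached 1017 ± 63.6 RPKM in control brains and 26.6 ± 9.10 in control spleens (SD, n = 2 each), a 38.2-fold gap. Nnat lies within Blcap on the opposite strand, so reads of the pair can be told apart only if counting used strand, which is not stated. The Prader-Willi and Angelman region on chromosome 7 also peaked in brain. There Snrpn, a splicing-factor gene, was at 50.7 ± 3.56 in control brains and 1.34 ± 0.174 in control fibroblasts (n = 3), and Ndn and Magel2, both of the MAGE family, were at 87.0 ± 0.0513 and 14.9 ± 1.01 in control brains. Snurf, whose exons lie inside Snrpn, was listed at 0 in all 18 libraries. Whether reads shared by the pair were counted for Snrpn or left out is not known here.

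Peg13, a noncoding RNA inside Trappc9, was at 75.1 ± 7.88 in control brains and 8.95 ± 1.61 in control fibroblasts, while Trappc9 itself was at 12.7 ± 0.575 in control brains. Both transcripts lie on the minus strand, so strand would not separate their shared stretch. Kcnk9, a potassium channel of the same cluster, had reads in control brains only, at 1.32 ± 0.463, and none in the 7 control libraries of the other tissues. Usp29, Rasgrf1 (a neuronal exchange factor), Zdbf2 and Mkrn3 were also highest in brain, by 12.0-fold to 82.6-fold over the next tissue.

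Meg3, Rian and Mirg are noncoding RNAs expressed from the maternal copy of the Dlk1–Dio3 cluster. All 3 were ordered brain, fibroblast, liver, spleen, with Meg3 at 147 ± 8.45, 16.7 ± 2.11, 10.2 ± 2.68 and 3.27 ± 0.485 RPKM. The paternally expressed genes of the cluster had other orders. Dlk1, a Notch-related growth factor, peaked in liver at 23.7 ± 6.32, and Dio3, which inactivates thyroid hormone, peaked in fibroblasts at 38.9 ± 29.3, against 1.53 ± 0.209 in control brains. The 3 fibroblast values behind that Dio3 mean spread widely, with signals of 11.01, 103 and 125.

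Liver was the peak of Igf2, the fetal insulin-like growth factor, and of H19, the noncoding RNA from the other parental copy of the same domain. Control livers held 1009 ± 132 RPKM of Igf2 and 3457 ± 1652 of H19, and the next tissues held 65.7 ± 11.6 (brain) and 131 ± 78.5 (spleen). H19 alone took 0.563% and 1.14% of all reads in genes in the control livers. Peg3 (87.5 ± 18.2), Dlk1 and the transporter gene Slc22a18 (12.2 ± 6.75) also peaked there without overlap with the next tissue. Fibroblasts were the peak of Igf2r, which clears Igf2 from the cell surface, at 45.0 ± 4.30, and of Cd81, a tetraspanin, at 204 ± 32.5, while their Igf2 was at 0.353 ± 0.248. In 10 genes the top 2 tissues overlapped, among them Cdkn1c, a cyclin-dependent kinase inhibitor, at 30.8 ± 0.603 in control brains and 30.0 ± 10.5 in control livers.

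Mutant and control libraries were next compared within each tissue, over genes with a mean signal of at least 1. Of the 40 genes, 28 passed that filter in fibroblasts, 34 in spleen, 34 in liver and 37 in brain, while 26 passed in all 4 tissues and 2 (Phlda2 and Ascl2) in none. Because the filter uses both groups, a gene high in a single group could pass through that group. No imprinted gene passed limma in any tissue after Benjamini-Hochberg adjustment over all genes, and edgeR also passed none. At an unadjusted limma p under 0.05 there were 0 imprinted genes in fibroblasts, 10 in spleen, 4 in liver and 3 in brain. Limma passed 0%, 0%, 0% and 0.0237% of all tested genes in fibroblasts, spleen, liver and brain, and the unadjusted threshold 0.971%, 6.27%, 6.67% and 4.07%. DESeq2, an alternative run on whole reads recovered from the tables, passed 0.0229%, 1.1%, 1.4% and 0.242% of all genes (0.00765%, 0.953%, 0.955% and 0.213% with higher mutants). Among the imprinted genes it passed Cdkn1c and Igf2 in spleen and Usp29 and Peg3 in liver. In organ tissue, fewer cells of a type and less RNA per cell cannot be told apart in any of these values.

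**Figure D2:**
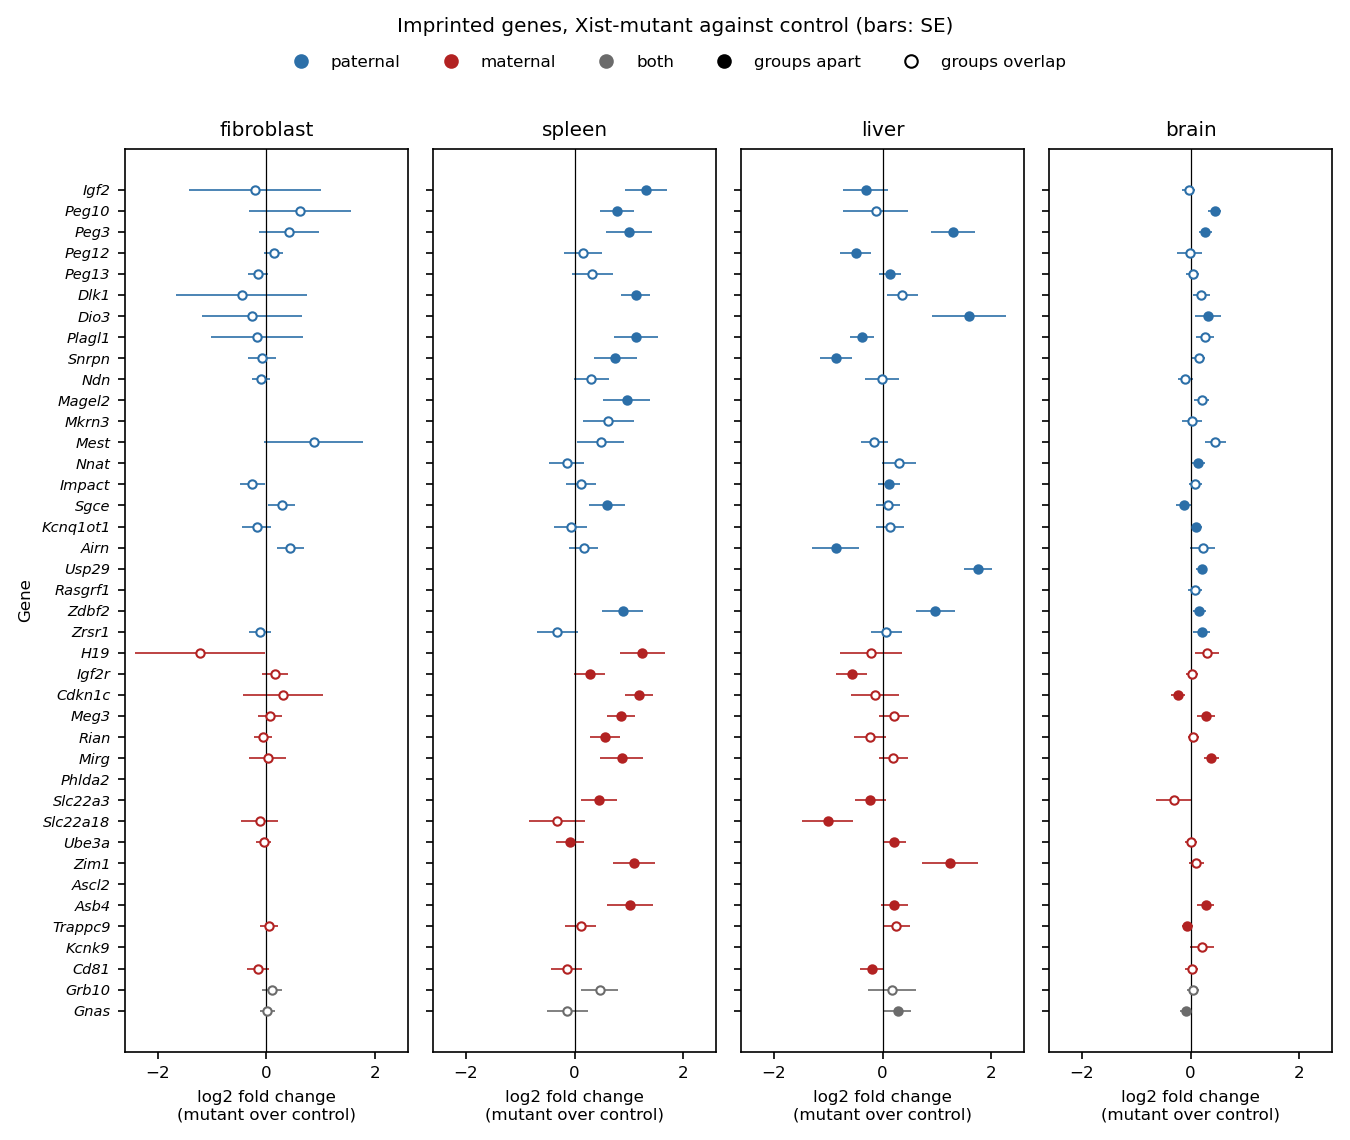
Limma log2 fold change (mutant over control, bars are SE) of each imprinted gene with a mean signal of at least 1 in fibroblasts, spleen, liver and brain; filled points have groups that do not overlap, and genes under the filter have no point. In spleen 27 of 34 genes lie above 0 and in brain 29 of 37, with spleen values up to 1.31 and brain values up to 0.46, and fibroblasts have no filled point.

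In spleen most imprinted genes of either parental class stood higher in mutants. Log2 fold changes were above 0 for 16 of 19 paternally expressed genes (median 0.60) and for 10 of 13 maternally expressed genes (median 0.56), while 43.5% of all tested genes lay above 0 (median -0.07). Mutant and control spleens did not overlap for 18 genes with higher mutants, 9 paternal and 9 maternal, and for 1 (Ube3a) with lower mutants. Over all genes such separation was seen in 18.3% with higher mutants and 21.9% with lower mutants. A mean signal of at least 5, separated groups and a log2 fold change of at least 0.5 were met by 13 imprinted genes, all higher in mutants. Of all genes with a mean signal of at least 5, 9.23% met the rest in that direction and 9.83% in the other. Without spleen mutant 1 the counts above 0 became 14 of 19 and 11 of 13, against 48.6% of all genes. The medians became 0.32 and 0.55. Upward separation then held for 9 of 19 and 11 of 13, against 30.4% of all genes. Without mutant 2, the library highest in pancreas markers, the counts above 0 were 18 of 19 and 9 of 13 (40.1% of all genes). Without control 1, the next highest in those markers, they were 15 of 19 and 10 of 13 (44.0% of all genes).

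**Figure D3:**
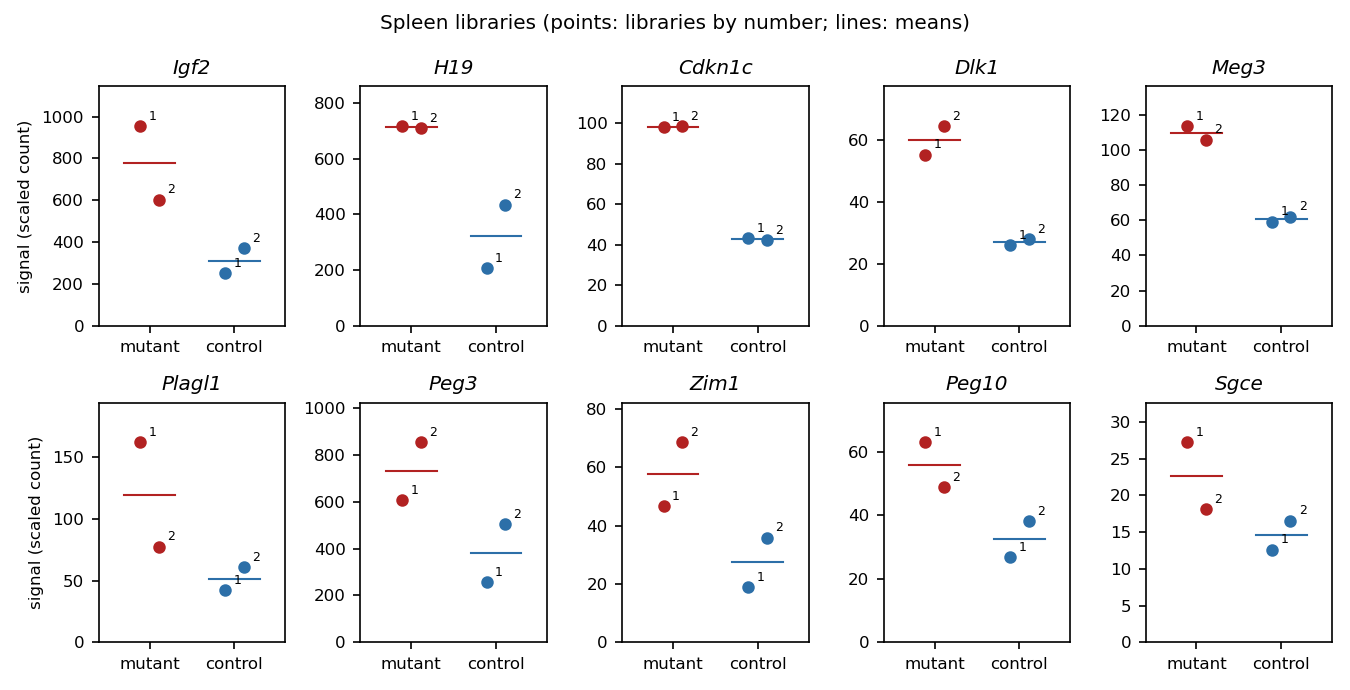
Signal of 10 imprinted genes in each spleen library, mutants left and controls right; points carry the library number and lines are means of 2 libraries. In each panel both mutants lie above both controls, as for Cdkn1c (98.0 and 98.7 against 43.5 and 42.2).

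Igf2 had a signal of 955 and 604 in mutant spleens, against 252 and 372 in control spleens. H19, from the same domain (chr7:142575529-142578143), had 718 and 711 in mutant spleens, against 207 and 436 in control spleens. For both genes each mutant exceeded each control, and control 2 lay nearer to the mutants than control 1. The limma log2 fold change was 1.31 for Igf2 (SE 0.38, adjusted p = 0.681) and 1.25 for H19 (SE 0.42, adjusted p = 0.751). DESeq2 gave Igf2 an adjusted p of 0.0470, within a range of 9.03e-05 to 1.00 over 17 alternatives, and H19 one of 0.156. The H19 to Igf2 ratio of signals was 0.751 and 1.18 in mutant spleens and 0.823 and 1.17 in control spleens, so the groups overlapped on it.

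Cdkn1c varied little within either group. Its signal was 98.0 and 98.7 in mutant spleens, against 43.5 and 42.2 in control spleens, a limma log2 fold change of 1.19 (SE 0.26, adjusted p = 0.448). DESeq2 passed it at an adjusted p of 0.0230, within 0.00376 to 1.00 over 17 alternatives. In the same domain Kcnq1ot1, the paternal noncoding RNA, overlapped between the groups, with 488 and 439 in mutant spleens against 499.5 and 475 in control spleens, and so did Cd81, with 165 and 188 against 175 and 216. Kcnq1, the potassium channel gene, had 4.36 and 9.33 in mutant spleens against 2.21 and 3.58 in control spleens, without overlap. Kcnq1ot1 lies antisense to Kcnq1, so their reads are uncertain unless counted by strand.

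All 4 tested genes of the Dlk1–Dio3 cluster were higher in mutant spleens, the paternally expressed Dlk1 and the maternally expressed Meg3, Rian and Mirg. Dlk1 had 55.1 and 64.4 in mutant spleens against 26.1 and 27.9 in control spleens, and Meg3 had 114 and 106 against 59.3 and 62.1. Rian (28.0 and 27.6 against 20.4 and 17.1) and Mirg (7.21 and 8.42 against 2.90 and 5.55) also did not overlap. Log2 fold changes were 1.13 for Dlk1 (SE 0.27), 0.85 for Meg3 (SE 0.26), 0.56 for Rian (SE 0.28) and 0.87 for Mirg (SE 0.40), with limma adjusted p from 0.510 to 0.779. Dio3 was at 0.3004 and 0.107 in mutant spleens and at 0 and 0.119 in control spleens, near the level of 3 reads, and was not tested.

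In the Peg3 cluster, Peg3 had 606 and 852 in mutant spleens against 257 and 503 in control spleens. Zim1, expressed from the maternal copy, had 46.6 and 68.6 in mutant spleens against 18.96 and 36.0 in control spleens. The log2 fold changes were 1.00 for Peg3 (SE 0.42) and 1.10 for Zim1 (SE 0.39), with limma adjusted p of 0.779 and 0.760. For both genes the lower mutant exceeded the higher control by less than the controls differed. DESeq2 with all libraries passed neither gene. Its log2 fold changes depended on the control left out, at 1.56 for Peg3 and 1.66 for Zim1 without control 2. Without control 1 they were 0.57 and 0.72. Usp29 did not reach the filter, at 2.03 and 0.858 in mutant spleens against 0.483 and 0.298 in control spleens.

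In the Peg10 cluster on chromosome 6, Peg10, a retrotransposon-derived gene, had 62.9 and 48.8 in mutant spleens against 26.9 and 38.2 in control spleens. Sgce, which codes for a sarcoglycan and starts beside Peg10 on the other strand, had 27.2 and 18.2 against 12.6 and 16.6. Asb4, expressed from the maternal copy, had 7.36 and 3.65 against 2.48 and 2.15. All 3 genes did not overlap between groups, with log2 fold changes of 0.78, 0.60 and 1.02 (SE 0.31, 0.33 and 0.43).

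Plagl1, a zinc-finger factor that acts on other imprinted genes in mouse, had 162 and 77.5 in mutant spleens against 42.3 and 61.0 in control spleens (log2 fold change 1.13, SE 0.41). Zdbf2 had 11.1 and 6.70 in mutant spleens against 4.27 and 4.65 in control spleens (log2 fold change 0.88, SE 0.37). For both genes mutant 1 was the high library, and without it the limma log2 fold changes were 0.60 and 0.54. Snrpn and Magel2 also did not overlap, at signals of 1.502 to 2.18 in mutant spleens and 0.483 to 1.07 in control spleens, which are low levels. Their control means were under the filter of 1, so both passed it through the mutants, and their separation adds no support. Igf2r was slightly higher in both mutants, at 255 and 238 in mutant spleens against 225 and 183 in control spleens (log2 fold change 0.28, SE 0.29). By contrast Mest, Nnat, Impact, Ndn, Gnas and Grb10 overlapped between mutant and control spleens.

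Markers of several other cell types also differed between mutant and control spleens. All 7 mesenchyme markers did not overlap and were higher in mutants, and their sum was 4832 and 2942 in mutant spleens, against 1785 and 2111 in control spleens. Of 5 endothelial markers, 4 were higher in both mutants, and sums were 1430.5 and 1409 in mutant spleens against 884 and 1369 in control spleens. The 6 erythroid markers summed to 5863 and 8708 in mutant spleens, against 17938 and 8321 in control spleens, with 4 lower in both mutants. Neuron markers (4 of 6 separated upward) summed to 31.8 and 26.4 in mutant spleens against 11.4 and 15.1 in control spleens, and muscle markers (3 of 6) to 123 and 74.5 against 61.6 and 69.5. Glia-progenitor markers (1 of 6 separated upward and 1 downward) summed to 44.2 and 51.3 in mutant spleens against 79.3 and 82.5 in control spleens. Hepatocyte markers, at 362 and 24.4 in mutant spleens against 242 and 9.01 in control spleens, overlapped between the groups. Of 6 glucocorticoid-responsive genes, 5 were higher in both mutants, and their sum was 1415 and 946 in mutant spleens against 283 and 310.4 in control spleens. None of the 7 mesenchyme markers was at 0 in any spleen library, and the part of any of these lists in the imprinted-gene values was not tested.

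In liver the imprinted genes did not share a direction. Log2 fold changes were above 0 for 11 of 19 paternally expressed genes (median 0.10) and 6 of 13 maternally expressed genes (median -0.14), against 55.9% of all genes (median 0.05). The maternal median turned to 0.12 without mutant 2 and to 0.11 without control 1. Groups did not overlap for 10 genes with higher mutants and 9 with lower mutants, against 23.5% and 13.1% of all genes. These counts include Dio3 and Zdbf2, whose control means were under the filter of 1, and Snrpn, Peg12 and Slc22a3, whose mutant means were. Such genes passed the filter through the group where they were high, so their separation adds no support. The criteria of level, separation and size were met by 3 genes with higher mutants and 3 with lower mutants, against 8.42% and 4.54% of all genes.

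The Peg3 cluster, whose start regions are printed above, was higher in mutant livers. Peg3 had 2194 and 3582 in mutant livers, against 998 and 1317 in control livers. Usp29, across the shared start region, had 8.28 and 10.1 in mutant livers, against 2.67 and 2.09 in control livers. Zim1 had 67.7 and 177 in mutant livers, against 37.7 and 56.6 in control livers. In all 3 genes the mutants lay above the controls, by means that were 2.49-fold, 3.85-fold and 2.59-fold higher. The limma log2 fold changes were 1.29 (SE 0.40, adjusted p = 0.680) for Peg3, 1.75 (SE 0.26, adjusted p = 0.336) for Usp29 and 1.23 (SE 0.51, adjusted p = 0.770) for Zim1. The Zim1 value differed with the mutant library, at 0.55 without mutant 2 and 1.92 without mutant 1. DESeq2 passed Usp29 (adjusted p = 0.00137) and Peg3 (adjusted p = 0.0447), and gave Zim1 an adjusted p of 0.307. Over the alternatives adjusted p ran from 0.00137 to 0.988 for Usp29 and from 0.0447 to 1.00 for Peg3, and DESeq2 passed neither when any single library was left out.

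**Figure D4:**
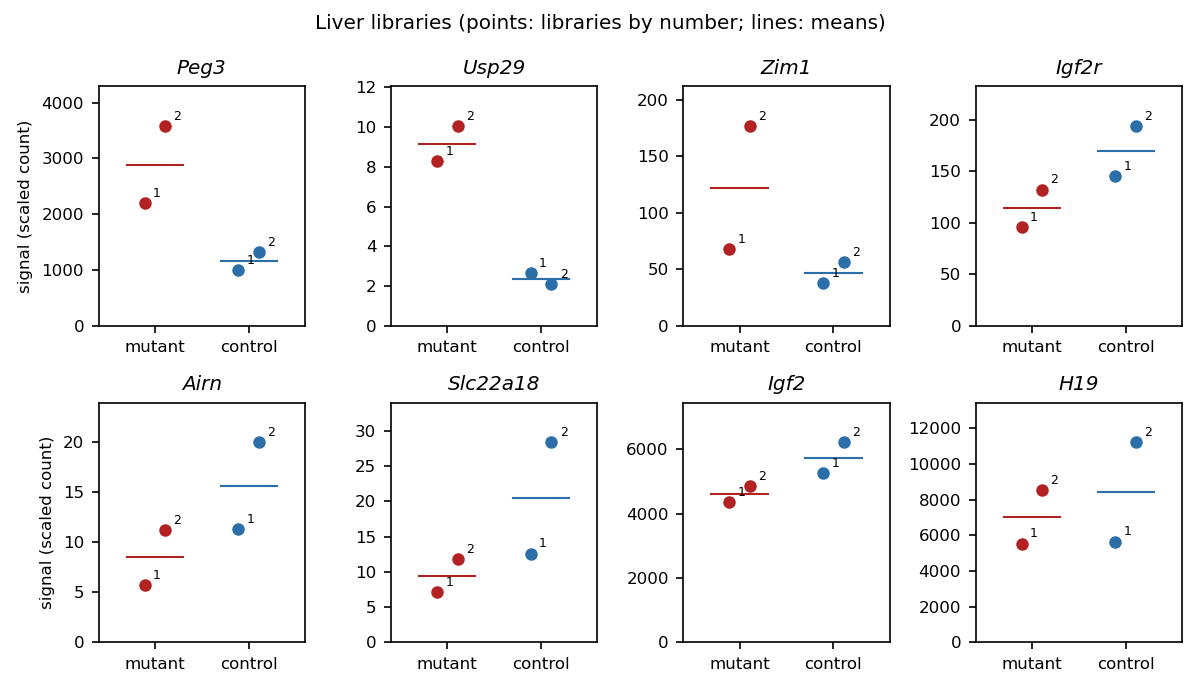
Signal of 8 imprinted genes in each liver library, mutants left and controls right; points carry the library number and lines are means of 2 libraries. Mutants lie above controls for Peg3, Usp29 and Zim1 and below them for Igf2r, Airn, Slc22a18 and Igf2, and H19 overlaps (5531 and 8516 in mutants, 5648 and 11206 in controls).

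The Igf2r cluster on chromosome 17 was lower in mutant livers. Igf2r had 96.1 and 132 in mutant livers against 145 and 194 in control livers, and Airn, the paternal noncoding RNA antisense to it, had 5.76 and 11.2 against 11.3 and 20.0. Airn is known to silence the paternal Igf2r copy in mouse, and the pair overlaps over part of its length, so without strand its reads could be shared. Log2 fold changes were -0.57 for Igf2r (SE 0.29, adjusted p = 0.803) and -0.86 for Airn (SE 0.43, adjusted p = 0.804) by limma. Slc22a18 had 7.09 and 11.8 in mutant livers against 12.6 and 28.3 in control livers, a log2 fold change of -1.01 (SE 0.47, adjusted p = 0.785), and its higher mutant lay just under its lower control.

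Igf2 was 4349 and 4865 in mutant livers and 5256 and 6210.0 in control livers. The mutants were lower in both libraries, but the log2 fold change of -0.31 (SE 0.41) was smaller than its error. H19 overlapped, at 5531 and 8516 in mutant livers and 5648 and 11206 in control livers. Dlk1, Meg3, Rian, Mirg, Peg10, Mest and Cdkn1c also overlapped between mutant and control livers.

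Low-level genes gave large ratios in liver that rest on few reads. Dio3 had 4.19 and 0.755 in mutant livers against 0.191 and 0.442 in control livers, with mutant 1 far above the rest. Snrpn had 0.619 and 0.686 in mutant livers against 1.40 and 1.81 in control livers, a log2 fold change of -0.86 (SE 0.30). Zdbf2 had 1.90 and 1.51 in mutant livers against 0.890 and 0.402 in control livers. Neither Dio3, Snrpn nor Zdbf2 passed limma or DESeq2 with all libraries.

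In liver too, all 7 mesenchyme markers were higher in both mutants, with sums of 721 and 607 in mutant livers against 441 and 516 in control livers, and 4 of 5 endothelial markers were higher. For the 7 hepatocyte markers the sums overlapped, at 110113 and 77800.3 in mutant livers against 105732 and 74607 in control livers. Singly, 3 of these 7 were separated with higher mutants and 1 with lower mutants. The 5 fetal-liver markers summed to 40893 and 41304 in mutant livers, against 41992 and 43087 in control livers. Of these 5, 1 was separated upward and 0 downward. All 6 glucocorticoid-responsive genes were higher in both mutants, with sums of 1186 and 721 in mutant livers against 221 and 277 in control livers. The part of these lists in the values of the imprinted genes was not tested.

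In brain the log2 fold changes of the imprinted genes ran from -0.31 to 0.46. They lay above 0 for 18 of 22 paternally expressed genes (median 0.16) and 10 of 13 maternally expressed genes (median 0.05), against 46.1% of all genes (median -0.01). Groups did not overlap for 11 genes with higher mutants and 4 with lower mutants, against 13.8% and 16.3% of all genes. No imprinted gene met the criteria of separation with a log2 fold change of at least 0.5, which 0.903% and 0.716% of all genes met upward and downward. Without control 1 the counts above 0 were 14 of 22 and 7 of 13, against 47.8% of all genes. Without mutant 2 they were 18 of 22 and 7 of 13, against 46.1% of all genes. Choroid plexus markers (6 genes) summed to 1052 and 684 in mutant brains and to 152 and 811 in control brains, with control 1 the low library. Of 6 neuron and 7 myeloid markers, 3 each were lower in both mutants, with neuron sums of 6161 and 6006 in mutant brains against 6999 and 5975 in control brains. Myeloid sums were 40.05 and 38.6 in mutant brains against 42.4 and 52.9 in control brains. Of 6 glucocorticoid-responsive genes, 4 were higher in both mutants, with sums of 282 and 235 in mutant brains against 198 and 193 in control brains. The part of these lists in the brain values was not tested.

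Peg10 had 276 and 243 in mutant brains against 173 and 209.6 in control brains, the smallest limma p of the imprinted genes there (log2 fold change 0.44, SE 0.12, adjusted p = 0.884). Mirg had 114 and 85.9 against 77.3 and 74.2, and Meg3 had 3785 and 2773 against 2609 and 2736, so the lower Meg3 mutant was close to the controls. Peg3 had 621 and 559 in mutant brains against 448 and 533 in control brains. Nnat, the most abundant of the 40 genes in brain per length, had 2059.9 and 2059 in mutant brains against 1820.5 and 1923 in control brains, a log2 fold change of 0.14 (SE 0.12). Cdkn1c was lower, at 59.0 and 48.9 in mutant brains against 65.1 and 61.2 in control brains (log2 fold change -0.23, SE 0.13).

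The neuronal genes of the Snrpn cluster overlapped between mutant and control brains. Snrpn had 113 and 132 in mutant brains against 107 and 114 in control brains, and Ube3a, the ubiquitin ligase that neurons express from the maternal copy, had 173 and 202 against 188 and 184. Ndn had 259.9 and 351 in mutant brains against 329 and 318 in control brains. Their log2 fold changes were 0.15 for Snrpn (SE 0.11), 0.01 for Ube3a (SE 0.11) and -0.10 for Ndn (SE 0.14).

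In fibroblasts no imprinted gene separated 3 mutants from 3 controls, which 2.07% of all genes did with higher mutants and 1.65% with lower mutants. Log2 fold changes lay above 0 for 6 of 16 paternally expressed genes (median -0.11) and 5 of 10 maternally expressed genes (median -0.02), against 48.9% of all genes (median -0.00). Without mutant 2 the counts were 5 of 16 and 4 of 10, against 52.0% of all genes. Without mutant 1 they were 10 of 16 and 4 of 10, against 49.2% of all genes, with a paternal median of 0.21.

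**Figure D5:**
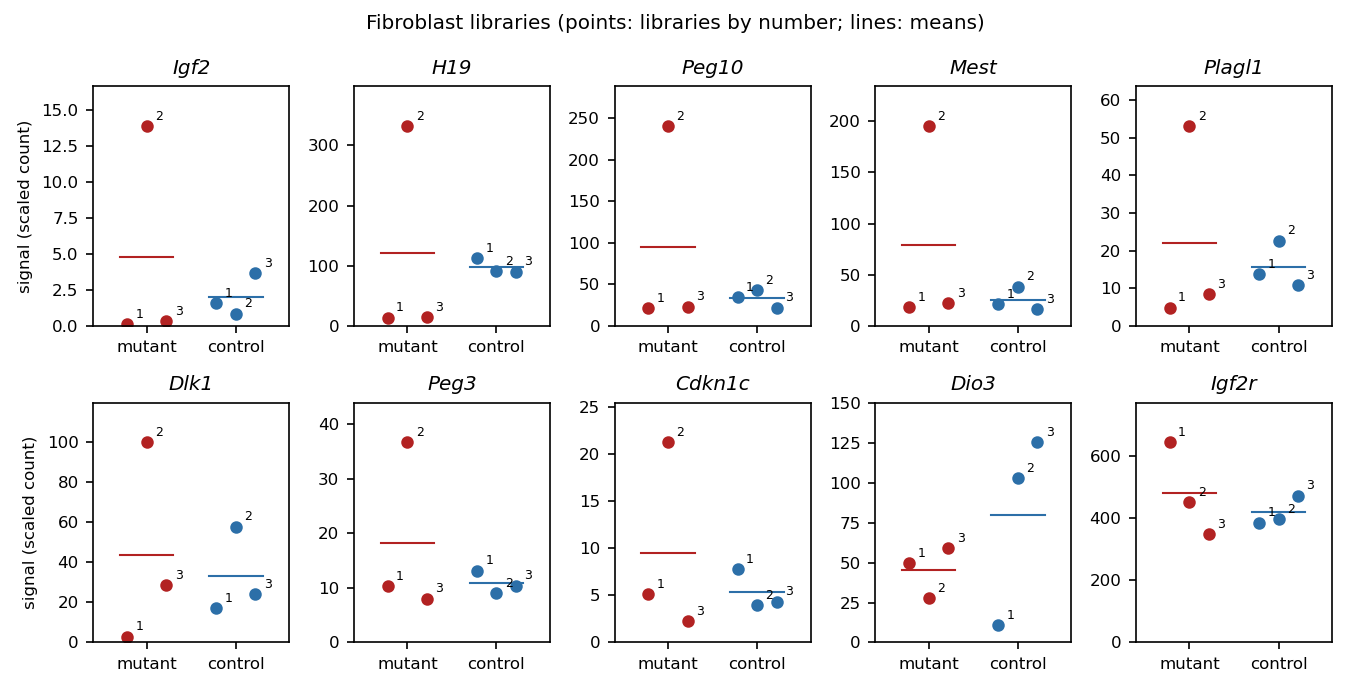
Signal of 10 imprinted genes in each fibroblast library, mutants left and controls right; points carry the library number and lines are means of 3 libraries. Mutant 2 is the top library for Igf2, H19, Peg10, Mest, Plagl1, Dlk1, Peg3 and Cdkn1c, and not for Dio3 or Igf2r.

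Mutant 2 was the library that stood apart. H19 had 13.9, 332 and 14.96 in mutant fibroblasts, against 112, 91.3 and 90.3 in control fibroblasts, so mutant 2 was above and the other 2 mutants were below all controls. Igf2 had 0.139, 13.9 and 0.319 in mutant fibroblasts, against 1.57, 0.847 and 3.65 in control fibroblasts. The order was the same at a far lower level, with only 3 and 7 reads in mutants 1 and 3. The control fibroblasts held 35, 17 and 82 reads of Igf2. Peg10 (21.2, 241 and 23.2 against 34.6, 43.6 and 22.0) and Mest, a hydrolase-family gene of mesoderm (18.4, 195 and 22.3 against 20.9, 38.3 and 16.2), were high in mutant 2 and overlapped otherwise.

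Plagl1 had 4.87, 53.1 and 8.35 in mutant fibroblasts against 13.8, 22.6 and 10.7 in control fibroblasts, again with mutant 2 above and the other 2 mutants below all controls. Dlk1 had 2.88, 99.9 and 28.5 in mutant fibroblasts against 17.3, 57.9 and 24.0 in control fibroblasts. Without mutant 2 the remaining mutants lay below all controls for 5 imprinted genes and above all controls for 0, against 6.65% and 7.74% of all genes. Dio3 did not follow mutant 2, at 49.9, 27.8 and 59.3 in mutant fibroblasts against 11.01, 103 and 125 in control fibroblasts. DESeq2 gave no adjusted p for H19, Mest and Peg10 in fibroblasts, and limma log2 fold changes had SEs of 1.19 for H19, 1.22 for Igf2 and 1.21 for Dlk1.

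Other imprinted genes had high signal in every fibroblast culture. Grb10, an adaptor that restrains growth-factor signalling, had 757, 1018 and 689 in mutant fibroblasts against 671, 789.7 and 808 in control fibroblasts. Meg3 had 325, 406 and 231 against 326, 312 and 266, and Rian had 462, 528 and 394 against 411, 501 and 529. Igf2r had 644, 451 and 348 in mutant fibroblasts against 386, 397 and 473 in control fibroblasts. Each of these groups overlapped, with log2 fold changes of 0.10 for Grb10 (SE 0.18), 0.06 for Meg3 (SE 0.22), -0.06 for Rian (SE 0.16) and 0.16 for Igf2r (SE 0.24). Mesenchyme markers summed to 37780, 26173 and 23365 in mutant fibroblasts and to 22374, 21960 and 20434 in control fibroblasts, with 3 of 7 separated, and their part in these values was not tested.

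A single fit to all 18 libraries asked whether the mutant effect was shared by tissues or differed between them. Of the 26 imprinted genes tested, 19 had a mean log2 fold change above 0 (median 0.08), against 46.6% of 11439 genes (median -0.01). None passed limma, which passed 0.306% of all genes for the mean. At an unadjusted p under 0.05 there were 2 imprinted genes, Peg3 (0.74, SE 0.25, adjusted p = 0.386) and Meg3 (0.35, SE 0.12, adjusted p = 0.378), and 8.89% of all genes. Peg3 was higher in both mutants than in both controls in spleen, liver and brain, and its fibroblast groups overlapped.

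Over the 6 pairs of tissues no imprinted gene passed limma for a difference of effects. Limma passed 0.00874% of all genes for fibroblast minus spleen, 0.0962% for fibroblast minus liver, 0.0175% for fibroblast minus brain, 0.00874% for spleen minus liver, 0% for spleen minus brain and 0.0437% for liver minus brain. In the same order, 3, 4, 0, 4, 0 and 2 of the 26 genes had an unadjusted p under 0.05, against 6.75%, 6.46%, 0.463%, 10.2%, 3.69% and 4.11% of all genes. The smallest adjusted p was that of Snrpn, whose log2 fold change was 1.61 higher in spleen than in liver (SE 0.35, adjusted p = 0.154) at signals of at most 2.18 in both organs. Its adjusted p ranged from 0.0456 to 0.542 over 25 alternatives. Snrpn reached the filter of 1 through the mutants in spleen and through the controls in liver. Those same high groups make up the Snrpn difference, so its size and adjusted p add no support. The median difference of the 26 genes was 0.63 for spleen minus liver and 0.37 for spleen minus brain, against -0.17 and -0.09 over all genes. The difference of Igf2r between spleen and liver was 0.85 (SE 0.36, adjusted p = 0.458) and that of Airn 1.03 (SE 0.47, adjusted p = 0.490).

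Other imprinted genes, listed by name (42, of which 39 were in the tables), passed limma nowhere. In spleen 19 of 31 tested lay above 0 (median 0.15), and mutants were separated upward for 8 and downward for 4, against 18.3% and 21.9% of all spleen genes. Dcn, a connective-tissue proteoglycan that is also one of the mesenchyme markers, had 53.9 and 62.9 in mutant spleens against 25.2 and 26.6 in control spleens, and DESeq2 alone passed it (adjusted p = 0.0437). Tspan32, a tetraspanin of blood cells, had 39.6 and 48.8 in mutant spleens against 91.9 and 60.6 in control spleens. In liver 14 of 30 lay above 0 (median -0.04), in brain 19 of 33 (median 0.04) and in fibroblasts 12 of 27 (median -0.01).

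The 23 genes known to keep imprints, such as DNA methyltransferases and their partners, had medians of 0.04 in fibroblasts, -0.13 in spleen, 0.09 in liver and -0.00 in brain, and none passed limma or DESeq2. In spleen 9 of 20 tested were lower in both mutants, against 21.9% of all spleen genes. Uhrf1, which brings the maintenance methyltransferase to replicating DNA, had 127 and 137 in mutant spleens against 399 and 169 in control spleens, and Ezh2 and Cbx5 were separated likewise. For these genes control 1 and control 2 differed by more than the groups' gap, with Uhrf1 SDs of 7.04 in mutant spleens and 163 in control spleens (n = 2 each).

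The 17 genes of the insulin-like growth factor axis, in which Igf2, Igf2r and Grb10 act, gave 2 calls in liver and 1 in brain by DESeq2, which passed 1.4% and 0.242% of all genes there, and none by limma. Igf1, the postnatal growth factor, had 17.6 and 18.8 in mutant livers against 57.6 and 45.3 in control livers, a limma log2 fold change of -1.46 (SE 0.22, adjusted p = 0.367) that DESeq2 passed (adjusted p = 0.000646). Igfbp1, a hepatic binding protein, had 8522 and 7186 in mutant livers against 1737 and 3203 in control livers, a log2 fold change of 1.73 (SE 0.48). Limma did not pass Igfbp1 (adjusted p = 0.653) and DESeq2 did (adjusted p = 0.00377). Igfbp3 had 74.9 and 68.5 in mutant brains against 42.1 and 37.8 in control brains, a log2 fold change of 0.84 (SE 0.12). Likewise limma did not pass Igfbp3 (adjusted p = 0.138) and DESeq2 did (adjusted p = 8.61e-05). For each of these 3 genes mutants and controls did not overlap, which was a condition for naming them and so adds nothing to the tests.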

How the data were processed

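Per the labels' protocols, total RNA was extracted with Trizol, ribosomal RNA was depleted with RiboMinus, and libraries used a directional second-strand module. Reads were 50 nt on Illumina HiSeq machines and replicates were biological, per the series design. HTSeq 0.6.1, edgeR and GRCm38 are named in the submitters' processing notes; for the aligner, the annotation and the strand setting, nothing is given in the sources used here. The series design names heart where labels and files name brain, and the labels were followed. Control columns are headed WT in the files, while the labels give a heterozygous Xist deletion.

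The deposited values are a signal, the authors' normalized read count per gene, in 4 tables, 1 per tissue. Sequences came from RefSeq's GRCm38 promoter table. Dividing each library's values by its smallest step gave whole reads for 100% of values (tolerance 0.05 reads), 12.4 M to 29.2 M reads per library. Counting intervals cover counting error only. Names came from GENCODE mouse release 21, which matched 45229 of 46078 identifiers; the other 849 held at most 0.179% of reads.

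Each tissue was fitted alone with limma 3.58.1 (R 4.3.3, trend, two-sided) on log2(signal + 0.5), for genes whose table mean reached 1, with Benjamini-Hochberg adjustment at 0.05. Fold changes on this scale understate those of low genes. A single limma fit to all 18 libraries gave the mean effect and the 6 differences between tissues. The count tests on recovered reads, DESeq2 1.42.0 and edgeR 4.0.16, were alternatives; with all libraries DESeq2 passed 3 genes in fibroblasts, 182 in spleen, 211 in liver and 41 in brain, and edgeR passed 4 in brain and 0 elsewhere. Other alternatives changed the pseudocount (0.1 and 1), the filter, the scaling, the replicate block and the libraries included. The code was tested on simulated data with 200 changed genes.

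Mutant-control values were singled out where the table mean was at least 5, groups did not overlap and the log2 fold change was at least 0.5 in size, or where limma or DESeq2 passed the gene; 19 of 133 tested gene-by-tissue values met this. Genes outside the 40 were named by the smallest limma p among separated genes of each list, up to 3 per tissue. Other values were chosen to show clusters, overlap or low level. The 40 genes and all lists were chosen with earlier results of these data known.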

Additional observations from a re-analysis of the deposited data

Results flagged for a closer look

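Slc22a3, an organic cation transporter of the Igf2r cluster, was higher in both mutant spleens and lower in both mutant livers than in the controls. Its signal was 8.04 and 7.02 in mutant spleens against 4.89 and 5.90 in control spleens. The liver values were 0.952 and 0.858 in mutants against 1.08 and 1.21 in controls. They rest on 20 and 25 reads in mutants and 17 and 30 in controls, and passed the filter of 1 through the controls. Of all genes, 18.3% were separated upward in spleen and 13.1% downward in liver, and the share with both was not computed. The log2 fold change was 0.673 higher in spleen than in liver, and this difference was not tested because Slc22a3 had no read in any fibroblast library and was outside the fit to all libraries.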

How the results depend on the processing

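Limma passed 0 genes in fibroblasts, spleen and liver and 4 in brain, none of them imprinted. DESeq2 passed 3, 182, 211 and 41 of 13077, 16578, 15075 and 16909 tested genes, and 2 imprinted genes each in spleen and liver. The tested genes included 28, 34, 34 and 37 imprinted genes. Without a filter on low values limma passed 22 genes in spleen, 11 in liver and 13 in brain. With spread shared by the tissues it passed 1 in fibroblasts, 37 in spleen and 119 in liver. With 1 library left out, where the lone sample is assumed to vary like the others, limma passed 0 to 173 genes in spleen, 0 in liver and 6 to 112 in brain, and 0 to 1 imprinted genes in brain (H19 without control 2, 0.72, adjusted p = 0.0309, range to 1.00). DESeq2 without spleen mutant 1, mutant 2, control 1 and control 2 passed 58, 82, 124 and 1555 genes, of which 0, 0, 1 (Cdkn1c) and 9 were imprinted. Without the same liver libraries it passed 74, 271, 132 and 110 genes, of which 1 (Zim1), 1 (Dio3), 0 and 0 were imprinted. The mean over tissues passed 35 genes, 105 without the filter (1 imprinted, Usp29), 16 with organs of the same number as a block, and 20 to 99 with a library left out. Differences between tissues passed 20 genes, 360 without the filter, 52 with that block (1 imprinted, Snrpn) and 7 to 392 with a library left out (0 to 1 imprinted, H19 for fibroblast minus spleen without fibroblast mutant 2, adjusted p = 0.0133). The cause of these shifts was not tested. Snrpn reached the filter through opposite groups in spleen and liver, so its call with that block adds no support.

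The labels do not say that replicate numbers pair the samples. Deviations of same-numbered mutant and control fibroblasts correlated at -0.08, 0.43 and 0.02, and those of unmatched numbers at -0.59 to 0.54. Same-numbered spleens, livers and brains, with 2 numbers each, gave -0.03, 0.58 and 0.08. With 2 numbers, crossed libraries give the same value with the sign reversed, so these values cannot show pairing. With the replicate block limma passed 356 genes in spleen and 60 in liver, and 0 imprinted genes. Of the 19 singled-out values no alternative reversed the direction, 303 comparisons kept their side of the threshold and 15 passed it. Of 84 recomputed medians, 7 moved by more than the spread: paternal fibroblast 0.21 without mutant 1, maternal spleen 0.46 without control 1, maternal liver 0.12 without mutant 2 and 0.11 without control 1, paternal liver 0.05 under DESeq2 size factors, and maternal brain 0.12 without mutant 1 and 0.16 without control 2. Depth limits Dio3, Snrpn, Usp29 and Slc22a3 outside their highest tissues.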

Other observations

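The 40 genes together took 1.52% and 1.97% of reads in genes in mutant livers and 1.47% and 2.16% in control livers. In brain they took 1.22% and 1.09% in mutants and 0.981% and 1.08% in controls. The ratio of Igf2 to Igf2r reads was 3.75 and 2.54 in mutant spleens against 1.12 and 2.03 in control spleens. In liver it was 45.3 and 36.8 in mutants against 36.2 and 32.0 in controls, so both mutants exceeded both controls in spleen and liver. In brain the groups overlapped, at 2.83 and 2.91 in mutants and 2.65 and 3.44 in controls. The ratio of Peg3 to Usp29 reads, which start from the region printed in the results, was 265 and 356 in mutant livers and 374 and 630.1 in control livers. In brain it was 4.13 and 3.90 in mutants and 3.73 and 3.95 in controls. Liver mutants were lower on it without overlap, and brain groups overlapped. These ratios were not tested.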
